A study of Ovis aries with 2 samples.

Results

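The connexin genes are the family whose symbols begin with GJ, and with them was taken TJP1, the gene for the scaffold protein ZO-1. Members were all gene names of the deposited transcript table made of GJ, a letter from A to E and a number, plus TJP1. This gave 18 connexin names and TJP1, 19 of the 15490 gene names in the table, each with 1 transcript entry. RNA was sequenced from granulosa cells scraped from all visible follicles above 2.5 mm in diameter of multiparous Hu sheep ewes aged 3 to 4 years, fed during the luteal phase. The nutrient-supplemented ewes (8 in the diet group) were given 1560 g of feed a day each, 1.5 times the maintenance diet. The dietary restricted ewes (8 in the diet group) were given 520 g a day each, 0.5 times that diet. No group fed at maintenance was analysed here. Each diet is represented by 1 library, and how many ewes went into it is not in the labels. The spread between animals was therefore not measured, and the diets could not be tested. Reads summed over all transcript entries were 9426679 for the supplemented library and 11299773 for the restricted one. Shares of all reads given below are shares of these sums.

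Connexins are membrane proteins that assemble into hemichannels, and hemichannels of neighbouring cells dock to form gap junctions through which ions, nucleotides and other small metabolites pass. In the follicle they couple the granulosa cells to each other and, through processes that cross the zona pellucida, to the oocyte. In the mouse, connexin 43 (gene GJA1) is the main gap junction protein between granulosa cells, and connexin 37 (GJA4) is required for coupling between granulosa cells and the oocyte. Gap junctions also carry cyclic GMP from granulosa cells to the oocyte, where it helps to hold meiosis at arrest. ZO-1 binds the carboxy-terminal tail of connexin 43 and links junction proteins to the actin cytoskeleton.

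The connexin message of these cells was almost entirely GJA1, and GJA1 was lower in the supplemented library. GJA1 stood at 431 FPKM (fragments scaled to transcript length and library size) in the supplemented library and 1057 FPKM in the restricted one, a 2.45-fold lower read ratio (95% counting interval 2.39 to 2.51). GJA4 was 1.90-fold lower (1.73 to 2.08). GJC1, the gene for connexin 45, was not separable between the libraries at this depth, and TJP1 was slightly higher in the supplemented library. The remaining 15 connexins had a mean below 1 FPKM. These intervals hold counting error alone. PCR copies are not independent molecules, and differences between ewes come on top. In such bulk samples fewer cells of a type and less RNA per cell cannot be told apart.

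**Figure D1:**
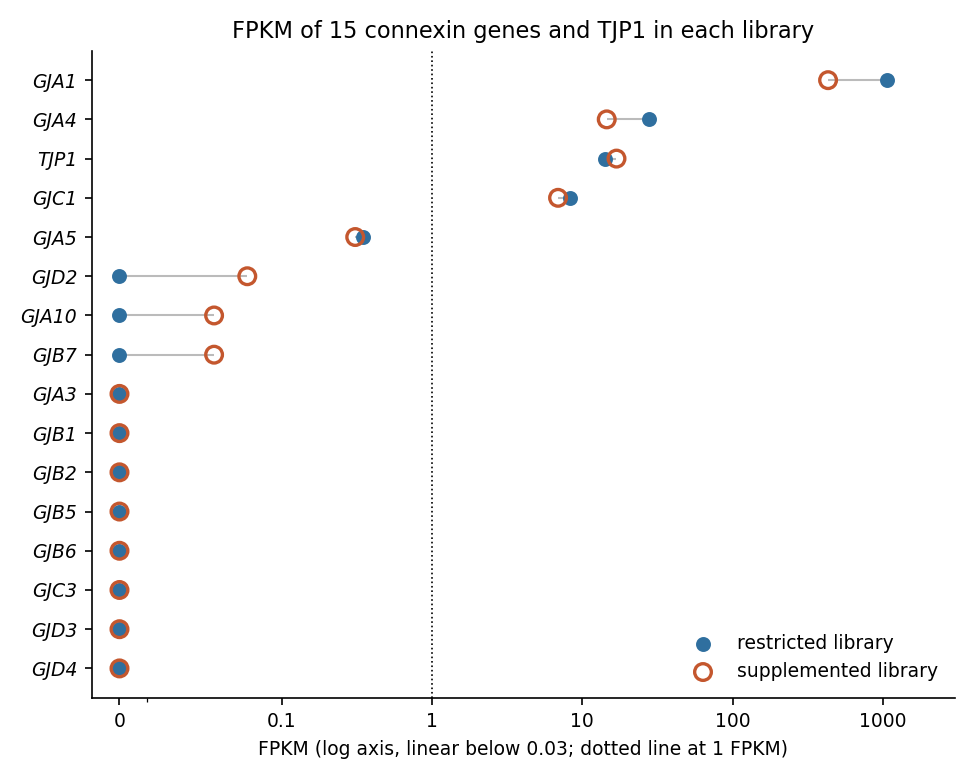
FPKM of 15 connexin genes and TJP1, 1 point per library (filled, restricted; open, supplemented), on a log axis that is linear below 0.03. GJA1 lies far to the right of all others, at 431 and 1057 FPKM, GJA4, TJP1 and GJC1 lie between 6.90 and 27.6 FPKM, and 8 of the connexins drawn lie at 0 in both libraries.

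GJA1 lies on chromosome 8 from 16825608 to 16826756 of Oar_v3.1. The deposited entry spans 1149 bases, a multiple of 3. Of the 11 connexin entries that span under 1500 bases, 10 have a span that is a multiple of 3, so these models hold mostly coding length. GJA1 had 9039 reads in the supplemented library and 22939 in the restricted one. These are 0.0959% (exact Clopper-Pearson 95% interval 0.0939 to 0.0979) and 0.203% (0.2004 to 0.206) of all reads, which do not overlap. Ranked by FPKM among the 15490 gene names, a measure that needs no scaling between libraries, GJA1 held rank 170 in the supplemented library and rank 82 in the restricted one.

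GJA4, which lies on chromosome 1 from 9599993 to 9602417, stood at 14.5 FPKM (715 reads) in the supplemented library and 27.6 FPKM (1405 reads) in the restricted one. Its counting intervals, 13.5 to 15.6 FPKM and 26.2 to 29.1 FPKM, do not overlap. Its rank was 4568 in the supplemented library and 2987 in the restricted one. GJA4 is made by oocytes and by endothelial cells as well as by follicular cells. The 13 oocyte markers named in the table summed to 23.6 FPKM in the supplemented library and 36.4 FPKM in the restricted one, with DAZL and SOHLH1 at 0 in the supplemented library. The 11 endothelial markers named summed to 20.8 against 7.33 FPKM, with SOX17 at 0 in the supplemented library. Of these 11, 3 were measured, all with an interval wholly above 1. They were PECAM1 (10.4 against 1.79 FPKM), the largest part of the supplemented sum, TIE1 (2.73 against 1.34 FPKM) and EMCN (21 reads against 4). The oocyte sum was thus lower and the endothelial sum higher in the library where GJA4 was lower, and the part of either in the GJA4 values was not tested.

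GJC1, a connexin of smooth muscle and the heart's conduction tissue, lies on chromosome 11 from 43948435 to 43949625. It stood at 6.90 FPKM (151 reads) in the supplemented library and 8.25 FPKM (187 reads) in the restricted one. The read ratio of supplemented to restricted was 0.836 with a counting interval of 0.67 to 1.04. No difference could be detected with this many reads, and the call depended on the scaling. Centred on the granulosa genes the ratio was 1.25 (1.003 to 1.56), and centred on stromal, pericyte and smooth muscle genes, a scaling chosen after seeing the data, it was 0.698 (0.559 to 0.869). Its rank was 6976 in the supplemented library and 6427 in the restricted one. GJA5, the gene for connexin 40 of arterial endothelium and atrial muscle, had 6 reads in the supplemented library and 7 in the restricted one, 0.309 and 0.348 FPKM. Its ratio of 0.887 had an interval of 0.246 to 3.08, so neither a difference nor its direction could be read.

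TJP1 lies on chromosome 18 from 27453888 to 27538010. It stood at 16.9 FPKM (1884 reads) in the supplemented library and 14.2 FPKM (1638 reads) in the restricted one, a read ratio of 1.19 (1.11 to 1.27). The scaffold thus went the other way from GJA1 as deposited. Its ratio was 1.38 (1.29 to 1.47) by share of all reads and 1.78 (1.67 to 1.91) centred on the granulosa genes, but 0.994 (0.93 to 1.06) centred on the stromal, pericyte and smooth muscle genes. Its rank was 4114 in the supplemented library and 4824 in the restricted one.

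The other connexins were near or at the limit of detection. GJA10, GJB7 and GJD2 each had 1 read in the supplemented library and 0 in the restricted library. No fold is given for them, since no library held more than 3 reads. GJA3, GJB1, GJB2, GJB5, GJB6, GJC3, GJD3 and GJD4 had 0 reads in both libraries. In the restricted library a count of 0 had an upper 95% Clopper-Pearson limit of 3.26e-05% of all reads, beside 0.203% for GJA1. Among these are GJB2, the gene for connexin 26 of the inner ear and many epithelia, and GJB5, a connexin of skin and placenta. Over the whole family 9 of 18 connexins were at 0, compared with 7.42% of all gene names, and 3 of 18 reached a mean of 1 FPKM, compared with 69.2% of all gene names. GJB6, GJB2 and GJA3 lie within 69.97 kb of chromosome 10, from 36246489 to 36316462, and this stretch of neighbouring connexin genes had no connexin read in either library.

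Among the members named here, the order by level per length in the restricted library was GJA1, GJA4, TJP1, GJC1 and GJA5. In the supplemented library it was GJA1, TJP1, GJA4, GJC1 and GJA5, followed by GJD2 and, at the same level, GJA10 and GJB7. The order of GJA4 and TJP1 thus differed between the libraries. In the supplemented library TJP1 lay above GJA4 by their counting intervals (16.1 to 17.7 against 13.5 to 15.6 FPKM), and in the restricted library it lay below (13.5 to 14.9 against 26.2 to 29.1 FPKM). In the supplemented library GJA5, on 6 reads (0.113 to 0.672 FPKM), did not separate from the genes at 1 read below it.

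Summed over the 18 connexins, the level was 453 FPKM in the supplemented library and 1094 FPKM in the restricted one, a ratio of 0.414. GJA1 held 95.1% of this sum in the supplemented library and 96.6% in the restricted one, GJA4 3.21% and 2.52%, and GJC1 1.52% and 0.754%. The family total therefore followed GJA1. Without GJA1 the sum was 22.0 against 36.7 FPKM, most of it GJA4. By summed scaled reads, a different measure from summed FPKM, the connexins without GJA1 were 1.77-fold lower (1.63 to 1.92) in the supplemented library.

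Ratios between members within a library do not depend on the scaling between libraries. Their size, like the FPKM shares and the order above, does rest on the length of each deposited entry. The GJA1 entry spans 1149 bases and the GJA4 entry 2425 bases. In the supplemented library 1 read was worth 0.0477 FPKM for GJA1 and 0.0203 FPKM for GJA4. GJA1 stood at 29.7 times the GJA4 FPKM in the supplemented library and 38.3 times in the restricted one, a 1.29-fold lower ratio (1.18 to 1.42). Against GJC1 it stood at 62.5 times and 128 times, a 2.05-fold lower ratio (1.65 to 2.54). Against TJP1 the ratio was 25.5 in the supplemented library and 74.6 in the restricted one, 2.92-fold lower (2.72 to 3.13). GJA4 was also lower against TJP1, at 0.861 and 1.95 times its FPKM, a 2.26-fold lower ratio (2.02 to 2.53). The balance of connexin to scaffold message was thus lower in the supplemented library for both of these connexins. GJC1 stood at 0.409 times TJP1 in the supplemented library and 0.582 times in the restricted one, a 1.42-fold lower ratio (1.14 to 1.78).

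Calls over the whole table put the members in context. Of the 4 measured members (mean FPKM of at least 1), GJA1 and GJA4 had a counting interval wholly below 1, as did 35.7% of the 11927 measured genes. TJP1 had one wholly above 1, as did 20.4% of measured genes. By size, a log2((supplemented FPKM + 1) / (restricted FPKM + 1)) at or below -1, GJA1 alone was called, at -1.29, and 2.85% of measured genes were. GJA4 lay just short at -0.88, GJC1 at -0.23 and TJP1 at 0.24. None of the 4 was higher by size, compared with 5.87% of measured genes. The authors' deposited table calls 0 of the 19 entries at q below 0.05, compared with 0.743% of all its entries. In the authors' deposited table GJA1 has an unadjusted p of 0.0149 and a q of 0.45. In the authors' deposited table GJA4 has an unadjusted p of 0.0364 and a q of 0.697. No other member has an unadjusted p below 0.05 there, and 4.55% of all entries do. Those values set 1 library against the other and do not test the diets.

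**Figure D2:**
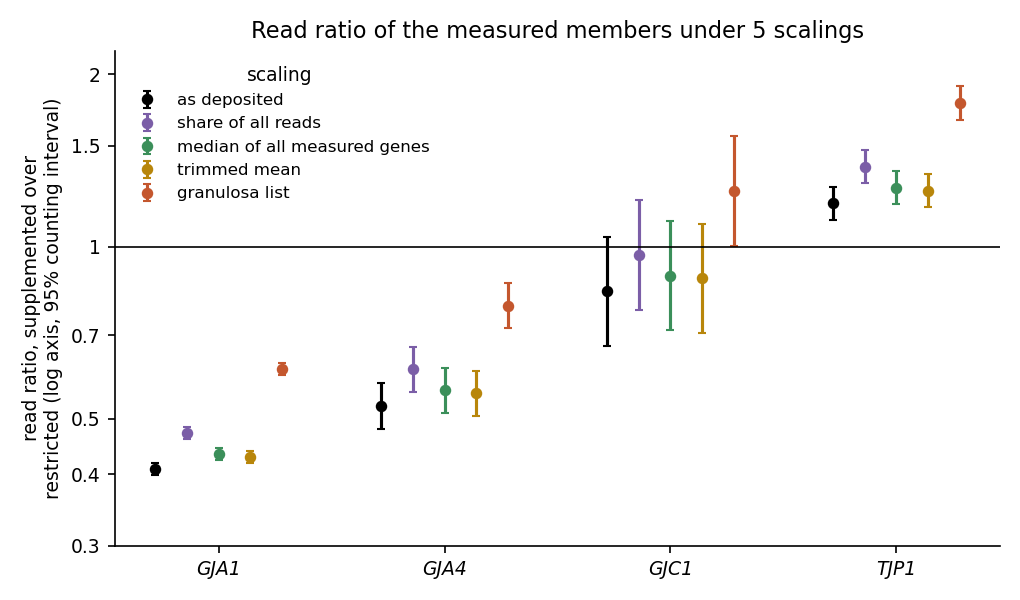
Read ratio of supplemented over restricted for the 4 measured members on a log axis, with 95% counting intervals, under 5 scalings between the libraries (colours). GJA1 (0.408 as deposited to 0.611 centred on granulosa genes) and GJA4 (0.527 to 0.789) stay below 1 under all 5, GJC1 crosses 1 and TJP1 stays above 1, though not when centred on stromal genes (0.994, not drawn).

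The size of the GJA1 difference depended on what the libraries were scaled to. The GJA1 read ratio was 0.408 as deposited and 0.472 by share of all reads. Centred on the median of the 16 measured granulosa genes it was 0.611, a log2 ratio of -0.71, which is short of the size threshold. The GJA4 ratio was 0.527 as deposited, 0.61 by share of all reads and 0.789 (0.72 to 0.863) when centred on the granulosa genes.

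Set beside other genes of granulosa cells, GJA1 had nearly the same ratio between the libraries as the inhibin subunits INHA and INHBA, CCND2 and SERPINE2. Of 19 genes in the granulosa list, 16 were measured and the other 3 were not analysed here, and none of the 16 was at 0. GJA1 stood at 0.148 times the FPKM of INHA, the inhibin alpha subunit, in the supplemented library and 0.143 times in the restricted one, a log2 change of 0.06. Against INHBA, the inhibin beta A subunit, the log2 change was 0.11, against CCND2, the D-type cyclin of granulosa cells, 0.13, and against SERPINE2, a protease inhibitor, -0.17. These 4 were the genes within 0.2 of GJA1 on the log2 scale. The inhibin beta B subunit INHBB was not among them. GJA1 stood at 1.18 times its FPKM in the supplemented library and 1.49 times in the restricted one (log2 change -0.34). Against CYP19A1, the aromatase, GJA1 was higher in the supplemented library, at 7.10 against 5.22 times its FPKM (log2 change 0.44).

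Relative to most of the granulosa genes, GJA1 was lower in the supplemented library, by differing amounts. GJA1 stood at 6.58 times the FPKM of FSHR, the receptor for follicle-stimulating hormone, in the supplemented library and 14.2 times in the restricted one (log2 change -1.11). Against NR5A2, a nuclear receptor of granulosa cells, it stood at 5.93 and 10.4 times (-0.81), and against AMH, anti-Mullerian hormone, at 7.16 and 12.0 times (-0.75). The change was smaller against the receptor LHCGR, at 38.5 and 46.0 times (-0.26). Over the 16 genes GJA1 was lower relative to 12 and higher relative to 4, with a median log2 change of -0.71, or -0.30 where the mean FPKM reached 5. The -0.71 is the same quantity as the GJA1 log2 ratio centred on the granulosa genes, and is not separate support. The largest changes, -1.75 for NR0B1, -1.70 for WT1 and -1.64 for AMHR2, were against genes of low level, at or below 5.35 FPKM.

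**Figure D3:**
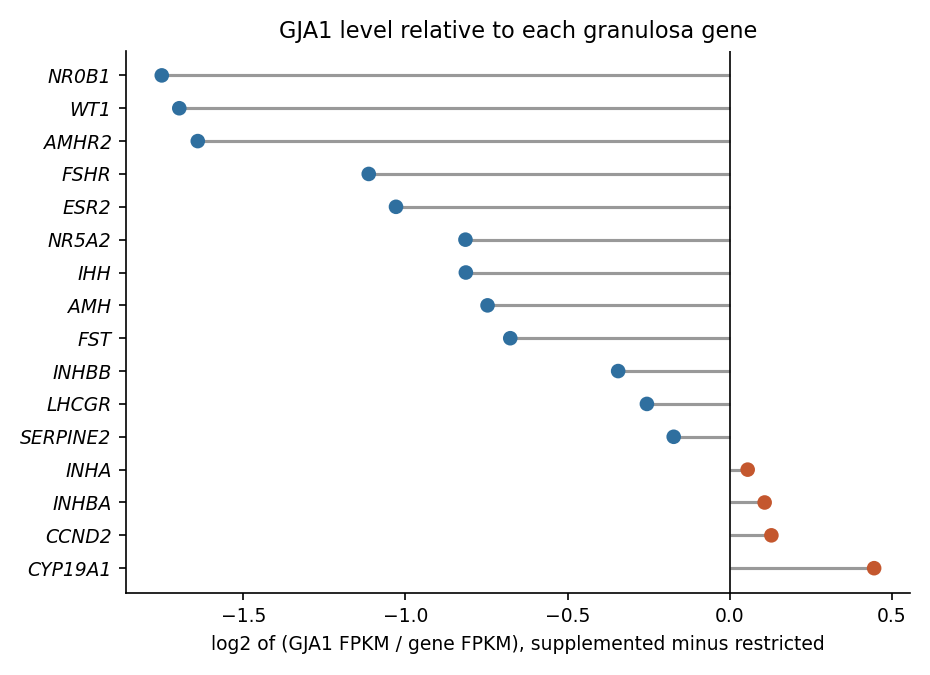
Change in the level of GJA1 relative to each of 16 measured granulosa genes, as log2 of the FPKM ratio in the supplemented minus the restricted library, with 1 point per gene and no scaling between libraries. The points run from -1.75 against NR0B1 to 0.44 against CYP19A1, with INHA, INHBA, CCND2 and SERPINE2 close to 0.

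Cell type markers also differed between the libraries, some lists mostly in the direction of GJA1 and others mostly in the opposite direction. The 19 leukocyte markers named in the table summed to 564 FPKM in the supplemented library and 121 FPKM in the restricted one, with MS4A1 at 0 in the restricted library, and all 17 measured had an interval wholly above 1. The 16 stromal, pericyte and smooth muscle markers summed to 1306 against 692 FPKM and the 9 theca markers to 293 against 146 FPKM, with none at 0. Of the 15 stromal, pericyte and smooth muscle markers measured, 8 had an interval wholly above 1, among them the collagens COL1A1, COL1A2 and COL3A1, ACTA2 and MYH11. The other direction held for 5 (PDGFRA, PDGFRB, CSPG4, LUM and NOTCH3), with an interval wholly below 1, and the median log2 ratio was 0.26. The largest parts of the theca sum were INSL3 (200.5 against 93.7 FPKM) and STAR (61.5 against 17.2 FPKM). Of the 6 theca markers measured, 5 had an interval wholly above 1. LHCGR, which is also in the granulosa list, had one wholly below 1. The 16 granulosa genes summed to 10896 against 24594 FPKM. The largest parts of this granulosa sum were SERPINE2, INHA, INHBA and FST. Of the 16, 12 had an interval wholly below 1, among them FSHR, with a read ratio of 0.882. For NR0B1 (read ratio 1.37), WT1 (1.32), AMHR2 (1.27) and ESR2 (0.833) the interval included 1. The granulosa list had a median log2 ratio of -0.58. The 18 epithelial markers summed to 98.7 against 200.1 FPKM, with KRT14 at 0 in both libraries and KRT7, KRT17 and CLDN4 at 0 in the restricted library. Most of this sum was 1 gene, UPK1B (66.5 against 144.4 FPKM), followed by KRT8 (22.1 against 36.1 FPKM). Of the 6 measured, 5 had an interval wholly below 1, and that of EPCAM included 1. The part of any of these marker lists in the connexin values was not tested. Stromal cells, leukocytes and theca cells can express GJA1 too.

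Among gene names with a mean FPKM within 2-fold of that of GJA1, 167 in all, the median log2 read ratio was -0.22, against -1.29 for GJA1. TIMP1 and CTGF were the only 2 of them with a lower ratio than GJA1, and both were named after their values were seen. The 5 genes with the nearest ratio were EGR1 (log2 read ratio -1.19), OBSL1 (-1.13), USMG5 (-1.05), EIF4EBP1 (-1.04) and JUNB (-1.02). This likeness rests on 1 ratio between 2 libraries.

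Partners of the connexins were called by size about as rarely as genes at large, of which 2.85% were lower and 5.87% higher. Of 10 measured scaffolds and partners, 1 was higher and 0 lower by size, with a median log2 ratio of 0.01 beside -0.08 over all measured genes. CAV1, the caveolin that binds connexin 43, stood at 16.4 FPKM (139 reads) in the supplemented library and 7.15 FPKM (57 reads) in the restricted one, and CTTN, an actin-binding protein, at 58.9 against 74.0 FPKM. Of 19 measured kinases and phosphatases that act on connexin 43, 1 was lower and 0 higher by size, with a median of -0.08. That gene was CDK1, the mitotic kinase, at 19.4 against 57.6 FPKM. PPP2CA, a phosphatase subunit, stood at 103 against 156 FPKM, MAPK7 at 10.03 against 15.0 FPKM, and PRKCA, a protein kinase C, at 4.60 against 2.65 FPKM. Of 11 measured genes of connexin turnover, 0 were called by size in either direction (median -0.03), with TSG101, a sorting protein of the lysosomal route, at 38.3 against 55.5 FPKM. The channel-forming pannexin PANX1 stood at 3.66 FPKM (87 reads) against 4.19 FPKM (103 reads), a ratio of 0.874 (0.65 to 1.17), and PANX3 was at 0 in both libraries.

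Of the other junction genes, 3 claudins and MAGI1 were higher by size in the supplemented library. Of 18 measured tight junction genes, 4 were higher and 0 lower by size, with a median of 0.18, beside 5.87% higher, 2.85% lower and a median of -0.08 over all measured genes. CLDN1, a barrier-forming claudin, stood at 9.46 FPKM (91 reads) in the supplemented library and 1.00 FPKM (10 reads) in the restricted one, CLDN11 at 6.82 (38 reads) against 1.91 FPKM (11 reads), and CLDN15 at 5.53 (62 reads) against 1.55 FPKM (18 reads). MAGI1, a junction scaffold, stood at 9.89 against 2.87 FPKM. Of 15 measured adherens junction and desmosome genes, 0 were called by size (median -0.03). By counting interval 6 lay wholly below 1 and 3 wholly above 1, beside 35.7% and 20.4% of all measured genes. CTNNB1, beta-catenin, stood at 121 against 155 FPKM, and CDH1, E-cadherin, at 0.709 (83 reads) against 2.33 FPKM (282 reads). The CDH1 read ratio was 0.305 (0.236 to 0.391). By size CDH1 lay just short at -0.96, since the 1 added to each FPKM shrinks the ratio of a gene at this low level.

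Genes of cyclic GMP supply and breakdown, whose product passes through these junctions, were few. Of 5 measured, 4 had an interval wholly below 1, and 1 was lower by size, with a median of -0.30, beside 35.7%, 2.85% and -0.08 over all measured genes. That gene was PDE5A, which breaks down cyclic GMP, at 2.84 FPKM (145 reads) in the supplemented library and 8.48 FPKM (448 reads) in the restricted one. NPR2, the receptor that makes cyclic GMP, stood at 16.2 against 18.2 FPKM, and IMPDH2, an enzyme of guanine nucleotide synthesis, at 61.9 against 76.3 FPKM. NPR3, a clearance receptor, stood at 1.83 against 4.23 FPKM.

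**Figure D4:**
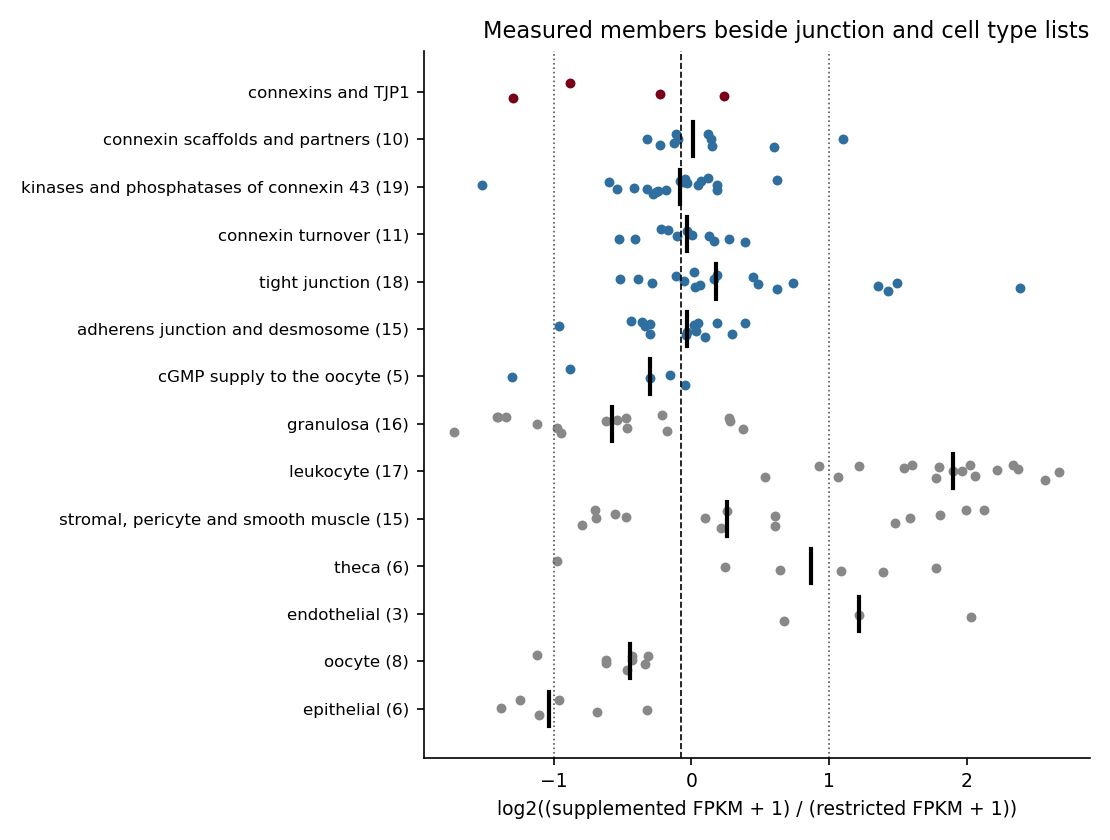
Log2((supplemented FPKM + 1) / (restricted FPKM + 1)) of the 4 measured members (top) beside genes of junction, partner and cell type lists (number measured in brackets), with 1 point per gene, a bar at each list's median, a dashed line at the median of all measured genes (-0.08) and dotted lines at -1 and 1. GJA1 at -1.29 lies left of the dotted line at -1 with CDK1, PDE5A and 5 granulosa genes among others, while leukocyte markers lie to the right with a median of 1.90.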

How the data were processed

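RNA of granulosa cells was made into 1 TruSeq library per diet from 5 µg of RNA with 15 PCR cycles, per the labels' protocols. Tools were TopHat and Cuffdiff and the build Oar_v3.1, per the submitters' processing notes, with no roles. An annotation was not given in the sources used here. Values of the read columns are a signal made by the authors from counts and a size factor for each library. A step of 1.02 (supplemented) or 0.983 (restricted) in it is 1 read. In units of this step, 98.5% and 98.3% of entries above 0 were whole to within 0.02. FPKM values are the authors', per the file headers, and p-values and q-values were copied from the authors' deposited table. Coordinates are those of the table, written 1-based.

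FPKM and reads were summed per gene name, and unnamed entries were kept apart. A gene was measured if its mean FPKM reached 1 (11927 genes). Folds were taken from scaled reads, with 95% intervals by the exact Clopper-Pearson method, intervals of FPKM are exact Poisson, and those of ratios between genes come from the logarithm of 4 counts. As count calls on the recovered reads, 4259 measured genes had an interval wholly below 1 and 2433 wholly above 1. These compare 2 libraries, and a replicate model needs more than 1 library per group. Trimmed mean scaling used edgeR 4.0.16, and other steps Python 3.11.15 with scipy 1.17.1. Intervals of the read ratios were tested on simulated independent Poisson counts, the model they assume. That simulation held no PCR copies and no differences between ewes, so it does not test the intervals against these. All 19 member names matched RefSeq symbols of ARS-UI_Ramb_v3.0, used for names only, and 3 further connexin symbols there were not analysed here.

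Members, lists and rules were chosen with earlier results of these data known. Members are named except 3 connexins, which count in the family totals and are not reported here, with up to 4 measured genes per partner list with the largest log2 ratio and the 5 genes most like GJA1. TIMP1, CTGF, the genes given as comparisons with GJA1 and the sums of marker lists fall outside this rule. Alternatives covered the scaling, the pseudocount, the filter and the entry used per gene.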

Additional observations from a re-analysis of the deposited data

How the results depend on the processing

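The GJA1 read ratio, 0.408 as deposited, was 0.472 by share of all reads, 0.434 centred on the median of all measured genes, 0.429 by trimmed mean scaling and 0.611 centred on the granulosa genes. The ratio of summed connexin FPKM, 0.414 as deposited, was 0.48, 0.441, 0.436 and 0.62 in the same order. Centred on the stromal, pericyte and smooth muscle list, chosen after seeing the data, the GJA1 ratio was 0.341, the summed ratio 0.346, the TJP1 ratio 0.994 (1.19 as deposited) and the GJC1 ratio 0.698. These scalings multiply every gene of a library alike, by construction. The count of members at least 2-fold lower by size was 0 when centred on the granulosa genes, 2 (GJA1 and GJA4) when centred on the stromal list and 1 (GJA1) under the other alternatives run for that count. GJA1 and GJA4 had an interval wholly below 1 under every alternative run for that count, joined by GJC1 when centred on the stromal list (3 members). The GJC1 ratio, 0.836 as deposited, was 1.25 when centred on the granulosa genes. Scalings were applied to GJA4, GJC1 and TJP1 singly after seeing the data. Each member has 1 entry, so the choice of entry changed no member's value. No paired analysis was possible because each diet has 1 library. Leaving out a library leaves no comparison. Depth limits the 15 connexins below a mean of 1 FPKM, for which no difference was detectable.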
